A study of Mus musculus with 16 samples.

Results

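The heat shock and unfolded protein response was followed through 35 listed genes in the trigeminal ganglion of the mouse, the cluster of sensory neurons and glia that serves the face. Members were found by gene symbol among the 25719 gene identifiers of the count tables, and all 35 were among the 15109 genes that passed the filter on low counts. They fall into 14 chaperones and folding enzymes of the endoplasmic reticulum (ER), 7 regulators of the unfolded protein response and the integrated stress response, 12 cytosolic heat shock proteins and cochaperones, and both subunits of the mitochondrial chaperonin. Polyadenylated RNA of whole ganglia was sequenced in 4 groups of 4 libraries: KO and WT mice 25 days after birth (P25), and KO and WT mice on embryonic day 14 (E14). KO stands for Nogo-A KO, the loss of the long protein product of Rtn4, an inhibitor of axon growth carried by neurons and oligodendrocytes. WT stands for wild type. Each library came from 1 ganglion, with 4 animals in each group per the labels, which name no strain, sex or knockout allele. At E14, 2 KO library names differ only in R or L, as do 2 WT library names, so these ganglia may come from the right and left side of 1 animal. Library totals ran from 15532373 to 29562379 counts.

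As background, chaperones bind unfolded proteins and help them fold, and cells make more of them when unfolded protein builds up. In the cytosol this is the heat shock response, in which the transcription factor HSF1 is released from chaperones and binds heat shock elements. In the ER it is the unfolded protein response, with IRE1, which splices Xbp1 mRNA, ATF6, which is cut to free a transcription factor, and PERK, which slows translation and favours ATF4. The integrated stress response joins PERK to kinases for amino acid lack, haem lack and viral RNA, all acting through ATF4. In sensory neurons, HSPB1 is known for survival after axon injury, and inherited changes in HSPB1, HSPB8 and BAG3 cause neuropathy or myopathy in people.

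Promoter elements for the stress factors are given first, because genes that hold the same element did not share a direction in the results that follow. The 300-base windows, from 250 bases before to 50 bases after a start site, come from RefSeq on GRCm38.p6, and 30 of the 35 members had one. The ER stress response element, bound by NF-Y with ATF6 or XBP1, was searched on both strands as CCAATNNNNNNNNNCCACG. It lay in 39 of 32851 windows, or 0.119%, and in those of 7 members, all ER chaperones or folding enzymes. Its stretches are printed 5′ to 3′ on the strand of each gene with the match in capitals, at chr2:34772017-34772051 (+) for Hspa5, chr14:118937819-118937853 (+) for Dnajc3, chr12:17266483-17266517 (+) for Pdia6, chr15:88819512-88819546 (+) for Creld2, chr8:84847067-84847101 (-) for Calr, chr11:50325792-50325826 (-) for Canx and chr10:86705630-86705664 (-) for Hsp90b1.
Hspa5: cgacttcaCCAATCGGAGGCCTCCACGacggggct
Dnajc3: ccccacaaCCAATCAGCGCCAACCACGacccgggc
Pdia6: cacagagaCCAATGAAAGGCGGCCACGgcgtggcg
Creld2: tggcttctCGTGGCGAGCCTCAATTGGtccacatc
Calr: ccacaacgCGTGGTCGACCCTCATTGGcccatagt
Canx: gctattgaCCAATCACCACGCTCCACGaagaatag
Hsp90b1: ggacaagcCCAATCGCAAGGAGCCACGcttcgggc

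In Creld2 and Calr the match reads on the other strand, as its reverse complement, and Hsp90b1 held a further match not shown. Hspa5 encodes BiP, the master chaperone of the ER, and the 250 bases before its start site, chr2:34771840-34772089 (+), show that single full match among further CCAAT boxes.
Hspa5, whole upstream window: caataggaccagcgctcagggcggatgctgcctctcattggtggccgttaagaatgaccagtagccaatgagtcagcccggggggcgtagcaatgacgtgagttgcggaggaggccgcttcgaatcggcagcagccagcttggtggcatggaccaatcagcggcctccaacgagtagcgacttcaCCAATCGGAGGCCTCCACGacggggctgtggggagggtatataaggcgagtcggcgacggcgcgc

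The shorter ER stress response element II was searched on both strands as ATTGG and CCACG with 1 base between them and lay in 12 windows, or 0.0365%, among them those of Herpud1 (chr8:94386369-94386395, +) and Dnajb11 (chr16:22857844-22857870, +). The C/EBP-ATF composite element through which ATF4 acts was searched as TGATGNAA on both strands and lay in 1304 windows, or 3.97%. It matched in Chac1 (chr2:119351041-119351064, +), Asns (chr6:7693217-7693240, -), Trib3 (chr2:152344031-152344054, -) and Herpud1 (chr8:94386309-94386332, +), the last of which thus holds both kinds of element. These stretches are printed with the match in capitals.
Herpud1, element II: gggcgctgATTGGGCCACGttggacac
Dnajb11, element II: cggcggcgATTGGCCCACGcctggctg
Herpud1, composite element: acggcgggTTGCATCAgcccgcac
Chac1: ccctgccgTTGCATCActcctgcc
Asns: cagccacaTGATGAAActtcccgc
Trib3: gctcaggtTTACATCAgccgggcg

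A heat shock element was searched on both strands as alternating GAA and TTC units, 3 in all and each 2 bases apart, and lay in 198 windows, or 0.603%. It matched in Hsph1 (chr5:149636280-149636308, -) and in the promoter that Hspd1 and Hspe1 share. Those genes lie head to head on chromosome 1 and overlap by 112 bases in the GRCm38 annotation, so chr1:55088056-55088084 (-) for Hspd1 and chr1:55088051-55088079 (+) for Hspe1 are opposite strands of nearly the same bases.
Hsph1: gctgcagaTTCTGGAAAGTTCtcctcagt
Hspd1: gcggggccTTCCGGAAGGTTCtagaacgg
Hspe1: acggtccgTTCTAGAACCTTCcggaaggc

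Hspd1 and Hspe1 each held a further, overlapping match not shown. Of the cytosolic members 8 had a window, and only that of Hsph1 matched, while Hspa8, Hsp90aa1, Hsp90ab1 and Hsf1 had no window. Manf of the ER branch had no window either, so it was not searched for any element. The search took exact units at fixed spacing, so a window without a match may still hold a heat shock element. A match is a description of letters, and no binding was measured in these ganglia.

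Levels are in CPM, the usual unit of counts over a common library total, here after scaling by the trimmed mean of M values, and only CPM per kilobase of the longest protein-coding transcript was compared between genes. On that scale the constitutive chaperones led in every group. Hspa8, the housekeeping HSP70, stood at 1109 CPM per kilobase at P25 KO, 1230 at P25 WT, 1403 at E14 KO and 1134 at E14 WT. Hsp90ab1, the constitutive HSP90, came next with 961 in P25 KO, 1125 in P25 WT, 1102 in E14 KO and 1043 in E14 WT. Calr, a calcium-binding ER chaperone for glycoproteins, was the third in each group, at 282 CPM per kilobase in P25 KO and 322 in P25 WT, against 471 in E14 KO and 390 in E14 WT. At the low end stood Trib3, Hspa1b and Hspa1a, with 0.603 to 2.27 CPM per kilobase over all groups. Several places in that order differed between the stages. Hspb8, Bag3 and Hspb1 took places 4, 5 and 6 at P25 in both genotypes, against places 21, 24 and 28 at E14 KO and 20, 24 and 28 at E14 WT. Pdia6 and Pdia4 stood at places 19 and 20 at P25 in both genotypes, against 8 and 10 at E14 KO and 7 and 10 at E14 WT. Summed over all members, the list held 9254 ± 436 CPM in P25 KO ganglia, 10276 ± 548 in P25 WT, 9716 ± 507 in E14 KO and 8578 ± 805 in E14 WT (SD, n = 4), or 0.858% to 1.03% of counts. Most of that sum was Hspa8 and Hsp90ab1.

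The whole ganglion is a mixture, and its cell markers moved with stage. Fewer cells of a type and less RNA per cell cannot be told apart in such samples. The 12 sensory neuron markers summed to 14719 to 19099 CPM at P25 and 15204 to 20691 CPM at E14, and none was at 0, so the defining markers of the labelled tissue were present. Single neuron markers moved both ways, with 4 called higher and 5 lower at P25 in KO and 4 higher and 4 lower in WT. The 10 myelinating Schwann cell markers were all higher at P25, with 22438 to 45023 CPM summed in P25 KO and 28780 to 33857 in P25 WT, against 474 to 574 in E14 KO and 440 to 611 in E14 WT. The 10 satellite glia markers summed to 5660 to 8631 CPM at P25 and 1232 to 1697 CPM at E14. Of these, 7 were called higher and 1 lower at P25 in each genotype, and 3 had negative values. The 8 cycling-cell markers summed to 42.7 to 60.6 CPM at P25 and 147 to 225 CPM at E14. The total of Rtn4 does not check the genotype, since the gene has other products. It averaged 368 ± 17.9 CPM in P25 KO against 489 ± 58.7 in P25 WT, and 298 ± 74.7 in E14 KO against 360 ± 164 in E14 WT (SD, n = 4). The library E14 WT replicate 2, which may share an animal with E14 WT replicate 4, stood apart. For each library the deviation from the mean of all libraries of its stage, both genotypes together, was taken gene by gene. A trend on transcript length and GC content accounted for 53.3% of the variance of that deviation in E14 WT replicate 2. In the others it was at most 39.8%, the highest of which was P25 WT replicate 4. Among the members, 11 lay below the other 3 E14 WT libraries in it, 16 above and 8 within their range, where 38.2% of all genes tested lay below and 42.6% above. Hsp90aa1 had 27.0 CPM there against 138 to 233 CPM in the other 3, and Hsp90b1 had 22.9 against 86.4 to 135 CPM. Over the 35 members the deviation of E14 WT replicate 2 from the E14 mean and transcript GC content had a Pearson correlation of 0.82 and a Spearman correlation of 0.81. This is a description, all points coming from 1 library. All 17 members called between the stages in WT were called without it too, and the members' WT values below 0 were 10 with it and 13 without it. The WT log2 fold changes that turned sign without it were those of Hspa5 (0.03 with it, -0.22 without it), Pdia3 (0.14 and -0.09) and Dnaja1 (0.12 and -0.15), none called either way. Further members not called whose WT values came nearer to 0 without it were Canx (0.30 with it, 0.03 without it), Hspd1 (0.27 and 0.04), Sesn2 (-0.50 and -0.12), Atf4 (-0.36 and -0.13), Sdf2l1 (-0.25 and -0.07) and Hspa8 (0.12 and 0.01), while Hsf1 moved away from it (0.05 and 0.36).

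**Figure D1:**
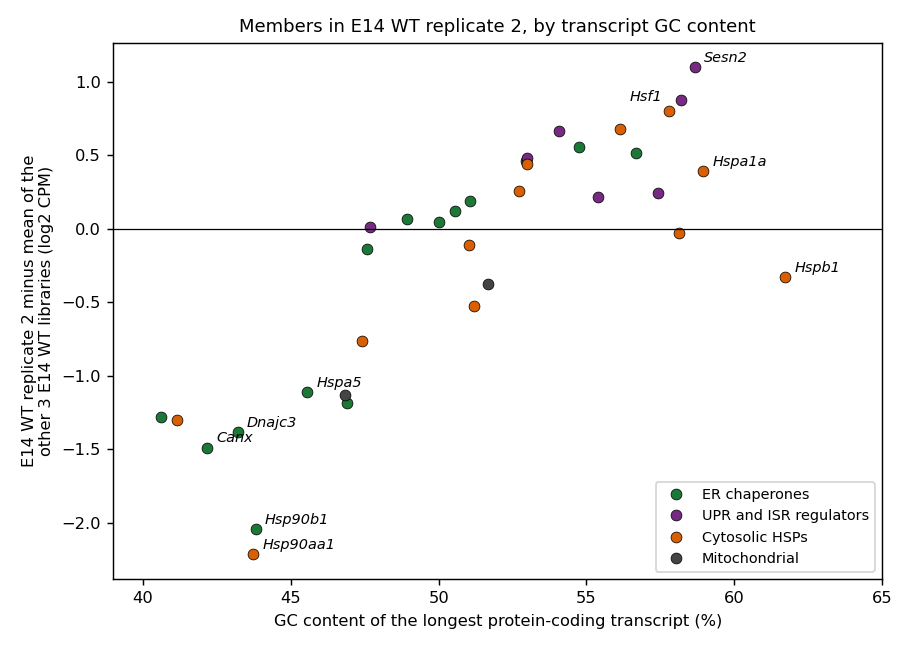
For each of the 35 members, the level in E14 WT replicate 2 minus the mean of all E14 libraries of both genotypes, itself included (log2 CPM, y axis). The printed axis label names the other 3 E14 WT libraries instead, but the values are from the mean of all E14 libraries. The x axis is the GC content of the longest protein-coding transcript (%), and points are coloured by branch. Low-GC members such as Hsp90aa1, Hsp90b1, Canx and Dnajc3 sit lowest and high-GC members such as Sesn2 and Hsf1 highest, with a Pearson correlation of 0.82 over the members.

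A gene was called at an adjusted p under 0.05 in edgeR's quasi-likelihood test with Benjamini-Hochberg adjustment over all genes tested. Between the stages, 6 of the 12 cytosolic heat shock genes in KO and 7 in WT were called higher at P25, and none lower. That was 50% and 58.3% of them, beside 30.6% and 29.7% of all genes. Of the 14 ER members, 6 were called lower and 3 higher in KO, and 4 lower and 3 higher in WT. Lower calls were 42.9% in KO and 28.6% in WT, beside 29.2% and 29.8% of all genes, and higher calls 21.4% in each. In KO ganglia 11 members were called higher at P25 and 8 lower, and in WT ganglia 12 higher and 5 lower. The share called was 54.3% of members in KO and 48.6% in WT, not above the background of 59.8% of all genes tested in KO and 59.6% in WT. By direction, 31.4% of members were called higher in KO against 30.6% of all genes, and 34.3% in WT against 29.7%. Lower calls made up 22.9% of members in KO against 29.2% of all genes, and 14.3% in WT against 29.8%. Both genotypes shared 11 members called higher and 5 called lower, none was called in opposite directions, and 15 were called in neither. Such joint counts were not taken over all genes, so they are not read as a trait of the members. Libraries of the stages did not overlap for 18 members in KO, 11 with P25 all higher and 7 all lower, where the shares over all genes were 30.5% and 29.3%. In WT they did not overlap for 17 members, 12 higher and 5 lower, where the shares were 26.1% and 24.2%.

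**Figure D2:**
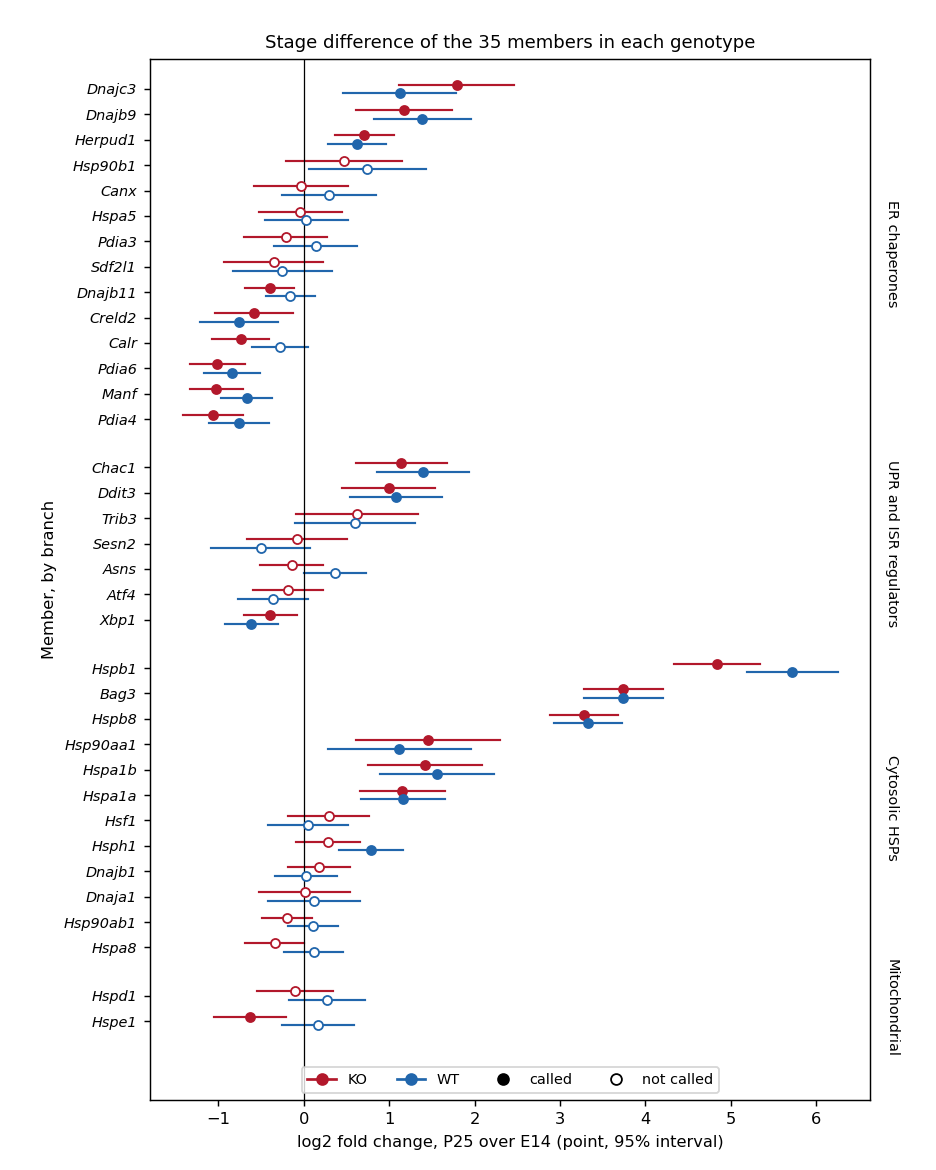
Stage difference of each member as log2 fold change, P25 over E14 (x axis), by branch (y axis, members in rows), in KO (red) and WT (blue) ganglia, with 95% intervals; filled points were called. Hspb1, Bag3 and Hspb8 stand far to the right of the other members, with log2 fold changes of 3.28 to 5.72, and Pdia4, Manf, Pdia6, Creld2 and Xbp1 were called lower in both genotypes.

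The small heat shock proteins and their partner had the largest stage differences of the list. Hspb1, a small heat shock protein that holds unfolding clients and guards the cytoskeleton, had 129, 149, 133 and 152 CPM in the P25 KO libraries and 156, 146, 139 and 264 CPM in the P25 WT libraries, against 6.0, 4.67, 4.95 and 4.10 CPM in E14 KO and 4.26, 3.17, 3.58 and 2.37 CPM in E14 WT. Every P25 library lay far above every E14 library, and P25 WT replicate 4 was the highest. Hspb1 was 28.6-fold higher at P25 in KO (log2 fold change 4.84, SE 0.243, adjusted p = 2.39e-12) and 52.7-fold higher in WT (5.72, SE 0.254, adjusted p = 4.15e-13). Without P25 WT replicate 4 the WT log2 fold change was 5.46.

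Bag3 is the cochaperone that couples HSPB8 and HSP70 to autophagy of damaged proteins. Its libraries held 596, 455, 502 and 409 CPM in P25 KO and 648, 463, 666 and 498 CPM in P25 WT, against 36.8, 37.8, 41.2 and 30.8 CPM in E14 KO and 37.1, 62.0, 38.2 and 32.9 CPM in E14 WT. The stages did not overlap in either genotype, and Bag3 was 13.4-fold higher at P25 in each (log2 fold change 3.74, SE 0.219, adjusted p = 2.12e-11 in KO and 2.06e-11 in WT). Hspb8, the small heat shock protein that BAG3 binds, had 342, 390, 401 and 387 CPM in P25 KO and 372, 409, 398 and 510 CPM in P25 WT, against 37.2, 31.7, 40.9 and 46.7 CPM in E14 KO and 46.7, 54.2, 33.3 and 34.5 CPM in E14 WT. It was 9.71-fold higher at P25 in KO (log2 fold change 3.28, SE 0.191, adjusted p = 1.92e-11) and 10.0-fold higher in WT (3.32, SE 0.191, adjusted p = 1.61e-11). The log2 ratio of Bag3 to Hspb8 averaged 0.36 ± 0.31 in P25 KO and 0.42 ± 0.41 in P25 WT, against -0.09 ± 0.36 in E14 KO and 0.00 ± 0.25 in E14 WT (SD, n = 4), a far smaller shift between the stages than that of either gene. Their rise came with that of the summed Schwann cell and satellite glia markers given above, whose part in it was not tested. Markers of skeletal muscle, where these proteins are also abundant, summed over 8 genes to 8.45 to 12.1 CPM in P25 KO and 6.19 to 9.22 CPM in P25 WT, against 3.41 to 13.7 CPM in E14 KO and 4.55 to 8.28 CPM in E14 WT, with Myh4 at 0 in both E14 groups. The part of muscle in these values was not tested.

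The stress-inducible HSP70 genes rose as well, at low levels. Immediate early genes, which neurons and glia switch on within minutes of a stimulus or of dissection, moved with them: of 15, 13 were called higher at P25 in KO and none lower, and 7 higher and 1 lower in WT. The higher calls were 86.7% in KO and 46.7% in WT, beside 30.6% and 29.7% of all genes. Egr2, 1 of the 15, is also among the Schwann cell markers. The 15 genes summed to 319 to 1673 CPM in P25 KO and 324 to 479 CPM in P25 WT, against 193 to 249 CPM in E14 KO and 171 to 247 CPM in E14 WT. The part of these genes in the HSP70 values was not tested. Hspa1b had 5.60, 4.83, 3.83 and 4.13 CPM in P25 KO and 4.35, 5.60, 5.89 and 5.18 CPM in P25 WT, against 1.0, 2.15, 0.93 and 2.67 CPM in E14 KO and 1.15, 1.59, 2.05 and 2.32 CPM in E14 WT. The stages did not overlap, and the log2 fold change was 1.42 in KO (SE 0.320, adjusted p = 0.000749) and 1.56 in WT (SE 0.319, adjusted p = 0.000303). Hspa1a, its near-identical neighbour 9951 bases away on chromosome 17, rose by 1.16 on the log2 scale in each genotype, with adjusted p-values of 0.000309 in KO and 0.00028 in WT. Reads of such copies are shared out by a model, so their sum is the firmer value. Hspa1a plus Hspa1b had 10.7 ± 0.856 CPM in P25 KO and 11.98 ± 1.15 in P25 WT, against 4.43 ± 0.672 in E14 KO and 4.796 ± 0.55 in E14 WT (SD, n = 4), which is 2.41-fold higher in KO (adjusted p = 8.84e-06) and 2.50-fold higher in WT (adjusted p = 5.02e-06).

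Hsp90aa1 encodes the inducible HSP90. It had 385, 401, 256 and 519 CPM in P25 KO and 308, 296, 317 and 393 CPM in P25 WT, against 118, 205, 150 and 96.3 CPM in E14 KO and 138, 27.0, 206 and 233 CPM in E14 WT. All P25 libraries were above all E14 libraries of their genotype, though the E14 WT libraries were widely spread. The log2 fold change was 1.46 in KO (SE 0.404, adjusted p = 0.0042) and 1.12 in WT (SE 0.401, adjusted p = 0.0211). In WT it was 0.77 without E14 WT replicate 2 (adjusted p = 0.0104), and the call was lost without P25 WT replicate 4 (adjusted p = 0.0522). Hsp90ab1 was called in neither genotype, so the log2 ratio of Hsp90aa1 to Hsp90ab1 was -2.67 ± 0.45 in P25 KO and -3.11 ± 0.24 in P25 WT, against -4.34 ± 0.37 in E14 KO and -4.50 ± 1.38 in E14 WT (SD, n = 4).

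Of the other cytosolic members, Hsph1, the HSP110 that resets HSP70, rose in WT (log2 fold change 0.79, SE 0.181, adjusted p = 0.000926) and was not called in KO (0.29, SE 0.180, adjusted p = 0.173). In KO it was just called without E14 WT replicate 2 (adjusted p = 0.0491). That library enters the KO comparison only through the filter, scaling, spread and adjustment shared by all groups. For Hsph1 the difference between the genotypes was not called (interaction log2 -0.50, adjusted p = 0.993). Hsf1 itself, the master regulator, had mean levels of 45.6 ± 5.57 CPM in P25 KO and 43.9 ± 6.54 in P25 WT, against 37.3 ± 7.68 in E14 KO and 42.5 ± 17 in E14 WT (SD, n = 4), with no call. Dnajb1 and Dnaja1, the HSP40 partners of HSP70, had log2 fold changes of 0.01 to 0.18 and no call, and Hspa8 had -0.34 in KO (adjusted p = 0.0792) and 0.12 in WT (adjusted p = 0.557). For the branch, 6 of 12 members were called higher in KO and 7 of 12 in WT, or 50% and 58.3% beside 30.6% and 29.7% of all genes. None was called lower, and the median log2 fold change was 0.72 in KO and 0.95 in WT beside 0.01 and 0.00 over all genes. Without E14 WT replicate 2 the WT median was 0.69, and Hspa8 was called lower in KO (adjusted p = 0.0267).

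**Figure D3:**
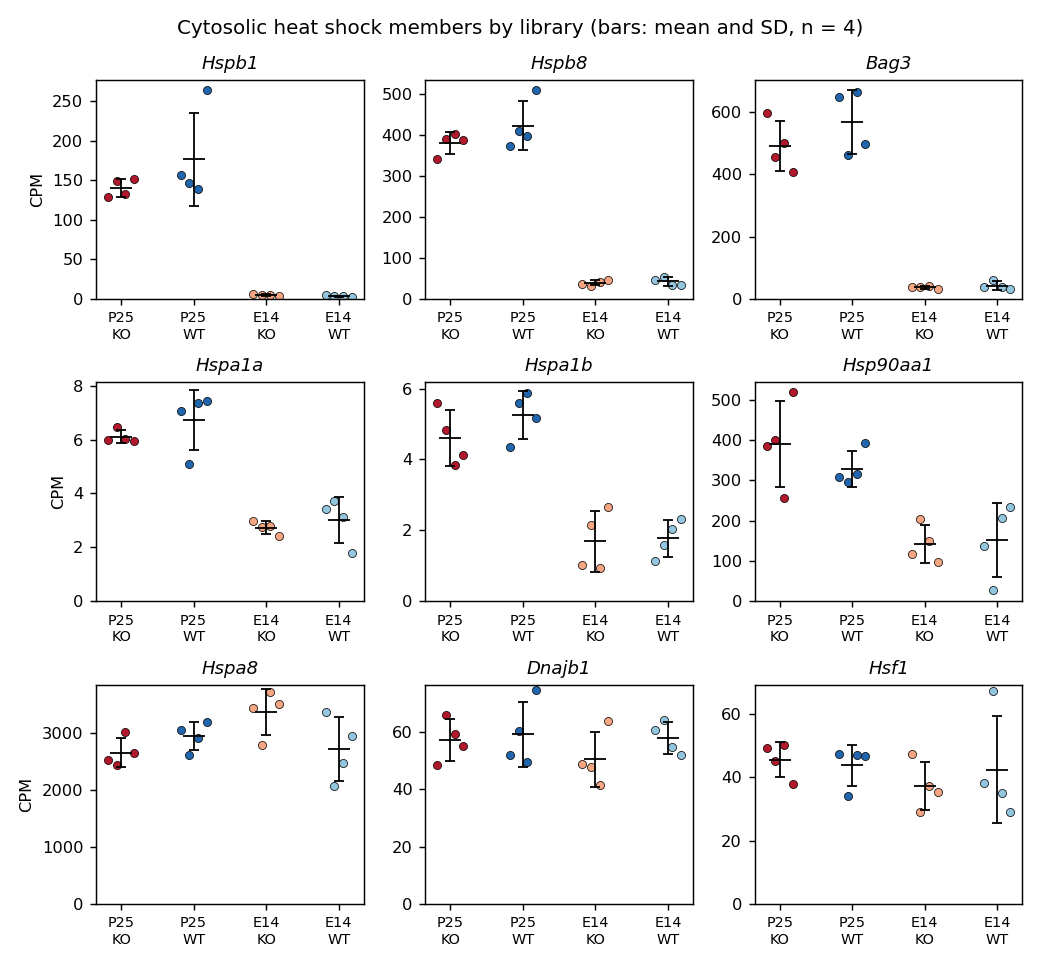
CPM of 9 cytosolic members in every library (points) with mean and SD (bars, n = 4), groups from left to right P25 KO, P25 WT, E14 KO and E14 WT; each y axis is linear and starts at 0. Hspb1, Hspb8, Bag3, Hspa1a, Hspa1b and Hsp90aa1 are higher at P25 in both genotypes, whereas Hspa8, Dnajb1 and Hsf1 overlap between the stages.

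Companion genes of the cytosolic network, not members, gave more calls higher than lower, except for TRiC. Of 30 other cytosolic chaperones and cochaperones, 10 were called higher and 2 lower at P25 in KO, and 11 higher and 2 lower in WT. The higher calls were 33.3% in KO and 36.7% in WT, near the 30.6% and 29.7% of all genes. The lower calls were 6.67% in each, beside 29.2% and 29.8% of all genes. The largest WT value was that of Cryab, the small heat shock protein alpha-B crystallin. It had 437 ± 91.1 CPM in P25 WT against 13.7 ± 3.63 in E14 WT (log2 fold change 4.99, SE 0.234, adjusted p = 9.19e-13). Dnaja4, another HSP40, had 71.2 ± 5.11 CPM in P25 WT against 5.71 ± 1.75 in E14 WT (3.64, SE 0.244, adjusted p = 1.41e-10). Dnajb5 and Fkbp5, an HSP90 cochaperone that responds to glucocorticoids, fell, with log2 fold changes of -0.99 (adjusted p = 0.000883) and -0.88 (adjusted p = 0.0237) in WT. The 8 subunits of TRiC, the cytosolic chaperonin that folds actin and tubulin, all had negative values: 7 were called lower in KO and 5 in WT, with medians of -1.02 and -0.58. Those calls were 87.5% and 62.5% of the subunits, beside 29.2% and 29.8% of all genes. Cct4 fell in WT to 86.7 ± 21.2 CPM at P25, against 178 ± 53.2 CPM at E14 (log2 fold change -1.04, SE 0.215, adjusted p = 0.000342), and Cct6a fell by 0.93 on that scale (adjusted p = 8.05e-05).

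In the ER, some folding enzymes fell and 3 members rose, and BiP was not called. In KO ganglia 3 of 14 were called higher and 6 lower, or 21.4% and 42.9%, beside 30.6% and 29.2% of all genes. In WT 3 were called higher and 4 lower, or 21.4% and 28.6%, no more than the 29.7% and 29.8% of all genes. The branch had median log2 fold changes of -0.28 in KO and -0.06 in WT. Pdia6 and Pdia4 are disulfide isomerases that form and rearrange disulfide bonds. Pdia6 had 62.4, 70.3, 73.9 and 64.0 CPM in P25 KO and 64.5, 75.9, 66.4 and 91.6 CPM in P25 WT, against 139, 109, 145 and 151 CPM in E14 KO and 132, 140, 115 and 145 CPM in E14 WT. Its stages did not overlap, and it fell by 1.01 on the log2 scale in KO (SE 0.156, adjusted p = 1.52e-05) and by 0.84 in WT (SE 0.156, adjusted p = 0.000116). Pdia4 had 73.7, 57.4, 96.3 and 57.2 CPM in P25 KO and 72.7, 82.0, 87.2 and 68.1 CPM in P25 WT, against 132, 158, 157 and 148 CPM in E14 KO and 139, 127, 122 and 136 CPM in E14 WT. All P25 libraries were below all E14 libraries, with log2 fold changes of -1.07 in KO (SE 0.168, adjusted p = 1.89e-05) and -0.76 in WT (SE 0.167, adjusted p = 0.000633).

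Manf, an ER-resident factor that is secreted under stress and supports neurons, had 39.1, 44.5, 43.3 and 39.9 CPM in P25 KO and 50.1, 56.4, 42.9 and 56.9 CPM in P25 WT, against 94.8, 80.8, 81.0 and 81.3 CPM in E14 KO and 81.3, 94.6, 74.4 and 77.4 CPM in E14 WT. The stages overlapped in neither genotype (log2 fold change -1.02, SE 0.146, adjusted p = 5.84e-06 in KO and -0.67, SE 0.145, adjusted p = 0.00054 in WT). Creld2, an ER stress-inducible disulfide isomerase, had 8.03, 8.58, 10.5 and 7.78 CPM in P25 KO and 9.22, 10.4, 7.28 and 14.3 CPM in P25 WT, against 11.9, 12.8, 10.8 and 16.5 CPM in E14 KO and 17.6, 22.0, 14.6 and 15.8 CPM in E14 WT. The gaps between its stages were narrow, and the log2 fold change was -0.58 in KO (SE 0.220, adjusted p = 0.0285) and -0.76 in WT (SE 0.219, adjusted p = 0.00547). The KO call was lost without E14 KO replicate 4 (adjusted p = 0.125) and without P25 KO replicate 1, 2 or 4 (0.071, 0.0682 and 0.0842).

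Dnajb9 and Dnajc3, J-domain cochaperones of BiP, went the other way. Dnajb9, which also holds IRE1 in check, had 22.4, 22.5, 21.6 and 25.0 CPM in P25 KO and 24.8, 27.9, 19.7 and 16.6 CPM in P25 WT, against 9.35, 13.9, 9.20 and 8.24 CPM in E14 KO and 11.3, 3.60, 8.87 and 10.1 CPM in E14 WT. Its log2 fold change was 1.17 in KO (SE 0.269, adjusted p = 0.000919) and 1.39 in WT (SE 0.271, adjusted p = 0.000192). Dnajc3, also an inhibitor of the kinase PERK, had 36.8, 34.1, 29.3 and 34.6 CPM in P25 KO and 29.63, 27.7, 27.1 and 22.6 CPM in P25 WT, against 7.71, 14.1, 9.20 and 7.86 CPM in E14 KO and 11.6, 3.78, 19.8 and 13.8 CPM in E14 WT. It was 3.46-fold higher at P25 in KO (log2 fold change 1.79, SE 0.321, adjusted p = 7.84e-05) and 2.18-fold higher in WT (1.12, SE 0.315, adjusted p = 0.00451). Without E14 WT replicate 2, where both genes were lowest, the WT values were 1.14 for Dnajb9 (adjusted p = 6.77e-05) and 0.83 for Dnajc3 (adjusted p = 0.0021). Herpud1, a membrane protein of ER-associated degradation, rose by 0.71 in KO (SE 0.164, adjusted p = 0.000968) and 0.62 in WT (SE 0.164, adjusted p = 0.00281).

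Hspa5 had 155, 158, 143 and 164 CPM in P25 KO and 146, 174, 158 and 202 CPM in P25 WT, against 150, 169, 160 and 158 CPM in E14 KO and 161, 72.1, 200 and 232 CPM in E14 WT. The groups overlapped, and the 95% interval of the log2 fold change was -0.53 to 0.45 in KO and -0.46 to 0.52 in WT. Calr fell in KO (log2 fold change -0.74, SE 0.158, adjusted p = 0.00048) and was not called in WT (-0.28, adjusted p = 0.139). With plain library totals it was called in WT too (adjusted p = 0.0295). Dnajb11, a further cochaperone of BiP, likewise had -0.39 in KO (adjusted p = 0.0187) and -0.16 in WT (adjusted p = 0.336). The Dnajb11 call was lost without E14 KO replicate 3 or P25 KO replicate 2 or 4 (adjusted p = 0.067, 0.0675 and 0.0723), and neither gene's difference between the genotypes was called (interaction adjusted p = 0.993). Hsp90b1, the HSP90 of the ER, had 0.47 in KO (adjusted p = 0.218) and 0.75 in WT (adjusted p = 0.0559). It was called higher in KO without E14 WT replicate 2 (adjusted p = 0.0206), and in WT without E14 WT replicate 3 or 4 (0.0373 and 0.0154). Without E14 WT replicate 2, where it was lowest, its WT value was 0.43 (adjusted p = 0.0528). Pdia3, Canx and Sdf2l1, a disulfide isomerase, the lectin chaperone calnexin and a cofactor of BiP, had log2 fold changes of -0.35 to 0.30 and no call.

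Read against the promoters, the 7 members with the ER stress response element did not move as 1 group. Pdia6 and Creld2 fell in both genotypes and Calr in KO, Dnajc3 rose in both, and Hspa5, Canx and Hsp90b1 were not called. Of the element II pair, Herpud1 rose and Dnajb11 was called lower in KO. The window of Pdia4, which fell, and that of Dnajb9, which rose, held neither element, which says nothing about the factors that act on them. Manf, which also fell, had no window to search.

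**Figure D4:**
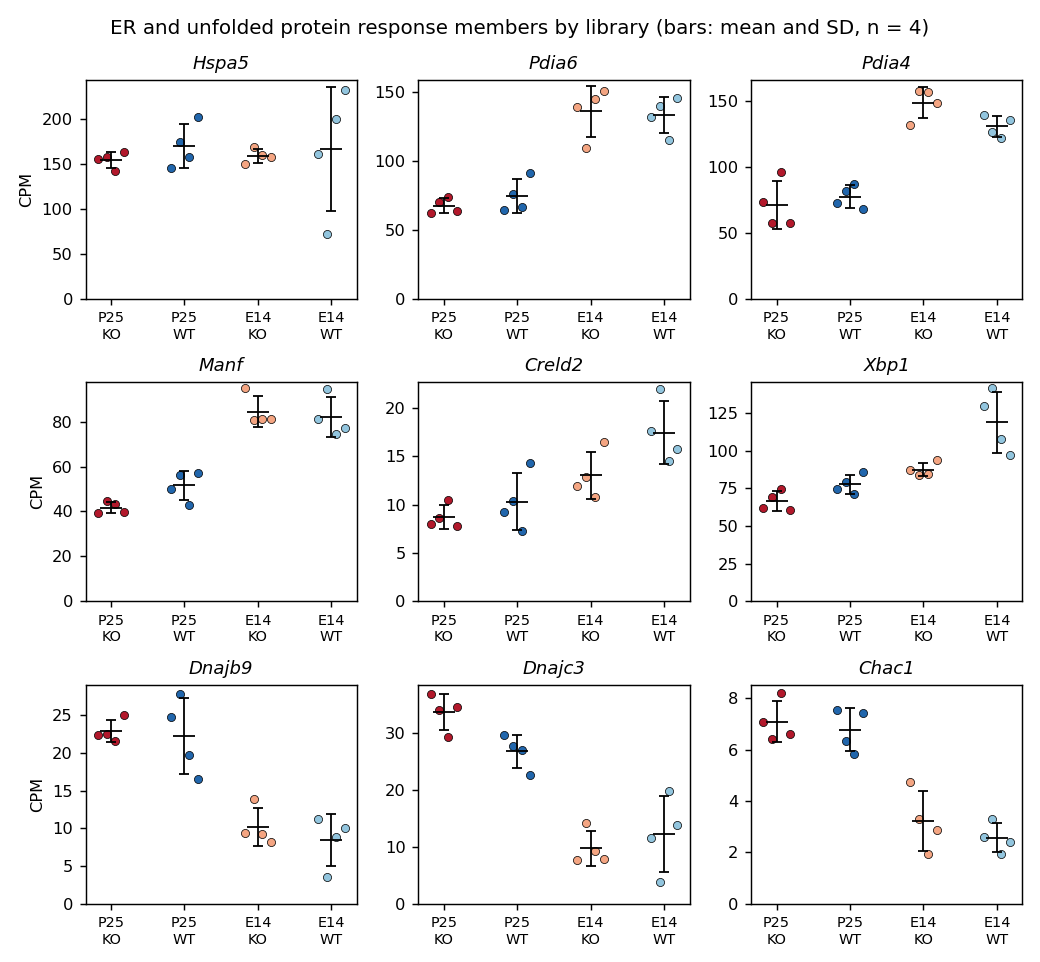
CPM of 9 ER and unfolded protein response members in every library (points) with mean and SD (bars, n = 4), groups from left to right P25 KO, P25 WT, E14 KO and E14 WT; each y axis is linear and starts at 0. Pdia6, Pdia4, Manf, Creld2 and Xbp1 are lower at P25, Dnajb9, Dnajc3 and Chac1 are higher, and Hspa5 overlaps between the stages with 72.1 CPM in E14 WT replicate 2.

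Among companion genes of the ER, 26 other folding and oxidation factors gave 6 higher and 10 lower calls in KO, and 7 higher and 11 lower in WT, with medians of -0.34 and -0.33. In KO that was 23.1% higher and 38.5% lower, beside 30.6% and 29.2% of all genes. In WT it was 26.9% and 42.3%, beside 29.7% and 29.8%. Ckap4, a membrane protein of ER sheets, had 50.4 ± 5.36 CPM in P25 WT against 156 ± 35.6 in E14 WT (log2 fold change -1.63, SE 0.166, adjusted p = 6.29e-08). Sec61b, a subunit of the translocon through which new proteins enter the ER, fell by 1.09 on that scale in WT (adjusted p = 0.00229). Sil1, the nucleotide exchange factor of BiP, had 50.8 ± 10.0 CPM in P25 WT against 21.2 ± 4.65 in E14 WT (log2 fold change 1.26, SE 0.234, adjusted p = 0.000111), and Spcs1 of the signal peptidase rose by 0.79 (adjusted p = 0.00262). Of 21 sensors and factors of ER-associated degradation, 5 were called higher and 3 lower in KO, and 4 higher and 3 lower in WT. These shares, 23.8% and 14.3% in KO and 19.0% and 14.3% in WT, were below those of all genes. The sensor Atf6 rose in WT (log2 fold change 0.63, adjusted p = 0.0263), as did the lectin Erlec1 (1.03, adjusted p = 0.000685), while its paralogue Atf6b (-0.87, adjusted p = 0.000623) and Mbtps2, a protease that cuts ATF6 (-1.09, adjusted p = 0.0132), fell.

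Among the regulators, Chac1 and Ddit3 rose and Xbp1 fell between the stages. In each genotype 2 of 7 were called higher and 1 lower, with median log2 fold changes of -0.07 in KO and 0.37 in WT. That was 28.6% and 14.3% of the branch, no more than the shares of all genes. Those shares were 30.6% higher and 29.2% lower in KO, and 29.7% and 29.8% in WT. Chac1, an enzyme that breaks down glutathione and a target of ATF4, had 7.08, 6.42, 8.21 and 6.63 CPM in P25 KO and 7.53, 6.32, 5.81 and 7.42 CPM in P25 WT, against 4.74, 3.31, 1.92 and 2.86 CPM in E14 KO and 2.61, 3.29, 1.93 and 2.41 CPM in E14 WT. No stage overlapped, and the log2 fold change was 1.14 in KO (SE 0.255, adjusted p = 0.000689) and 1.40 in WT (SE 0.258, adjusted p = 0.000104). Ddit3, the transcription factor CHOP that favours cell death under lasting ER stress, had 9.10, 12.5, 13.7 and 13.1 CPM in P25 KO and 12.8, 10.7, 9.15 and 17.8 CPM in P25 WT, against 6.70, 3.92, 8.68 and 5.05 CPM in E14 KO and 6.83, 6.83, 5.29 and 4.91 CPM in E14 WT. It was 1.99-fold higher at P25 in KO (log2 fold change 0.99, SE 0.259, adjusted p = 0.00262) and 2.12-fold higher in WT (1.08, SE 0.259, adjusted p = 0.00129). A second identifier with the same symbol overlaps this locus, so the split of reads between them is uncertain. It had a log2 fold change of 0.62 in KO (adjusted p = 0.126) and 0.99 in WT (adjusted p = 0.0171).

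Xbp1, whose mRNA is spliced by IRE1 to make the active factor, had 62.0, 69.5, 74.7 and 60.8 CPM in P25 KO and 74.3, 79.6, 71.2 and 85.8 CPM in P25 WT, against 87.5, 83.9, 84.7 and 93.8 CPM in E14 KO and 130, 142, 108 and 96.9 CPM in E14 WT. It fell by 0.39 on the log2 scale in KO (SE 0.148, adjusted p = 0.029) and by 0.61 in WT (SE 0.148, adjusted p = 0.00141). The gene total does not tell spliced from unspliced mRNA. The KO call was near the threshold and was lost without any 1 of E14 KO replicates 1, 3 and 4 or P25 KO replicates 1, 2 and 4, with adjusted p-values of 0.0504 to 0.0916. Atf4 had log2 fold changes of -0.19 in KO and -0.36 in WT, and Trib3, a pseudokinase that ATF4 and CHOP induce, had 0.62 and 0.60, none called. Trib3 was called higher in WT without E14 WT replicate 2 (adjusted p = 0.0175), and in KO without E14 KO replicate 1 (adjusted p = 0.0214). Asns, asparagine synthetase, and Sesn2, a leucine sensor that restrains mTORC1, were not called in either genotype, with -0.14 and -0.07 in KO and 0.37 and -0.50 in WT. Asns in WT (adjusted p = 0.0784) was called higher without E14 WT replicate 1, P25 WT replicate 2, or E14 KO replicate 2, 3 or 4, with adjusted p-values of 0.0152 to 0.0485. Thus of the 4 members with the composite element, Chac1 and Herpud1 rose and Trib3 and Asns were not called. Of 19 further targets of the integrated stress response, 6 were called higher and 5 lower in KO, and 6 higher and 4 lower in WT. In KO that was 31.6% and 26.3%, near the 30.6% and 29.2% of all genes. In WT it was 31.6% and 21.1%, beside 29.7% and 29.8%. Slc3a2, an amino acid transporter subunit, rose in WT (log2 fold change 0.76, adjusted p = 0.00115) and the mTOR inhibitor Ddit4 fell (-0.85, adjusted p = 0.00934). The phosphatase subunits that end the response parted, with Ppp1r15a, the inducible one, at 0.50 (adjusted p = 0.0341) and Ppp1r15b, the constitutive one, at -0.50 (adjusted p = 0.0259).

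In mitochondria, Hspd1 (HSP60) and its lid Hspe1 (HSP10) form the chaperonin. Hspd1 had 128 ± 11.4 CPM in P25 KO and 137 ± 5.60 in P25 WT, against 138 ± 15.3 in E14 KO and 113 ± 41.6 in E14 WT (SD, n = 4), and was not called. Hspe1 had 46.6, 50.7, 57.5 and 47.0 CPM in P25 KO and 70.1, 59.0, 53.9 and 73.2 CPM in P25 WT, against 109, 52.4, 81.1 and 68.2 CPM in E14 KO and 72.0, 50, 46.6 and 59.1 CPM in E14 WT. It was called lower at P25 in KO (log2 fold change -0.62, SE 0.202, adjusted p = 0.0121), though the libraries overlapped and the call was lost without E14 KO replicate 1 (adjusted p = 0.0779). Among 12 other mitochondrial chaperones and proteases, 3 were called higher and 1 lower in KO, and 4 higher and 1 lower in WT. In KO that was 25% and 8.33%, beside 30.6% and 29.2% of all genes. In WT it was 33.3% and 8.33%, beside 29.7% and 29.8%. Trap1, the mitochondrial HSP90, had 132 ± 9.91 CPM in P25 WT against 79.5 ± 23.1 in E14 WT (log2 fold change 0.74, SE 0.183, adjusted p = 0.00181). The protease subunit Afg3l2 rose by 0.48 in WT (adjusted p = 0.00487), and the nucleotide exchange factor Grpel2 fell, with a log2 fold change of -1.05 (adjusted p = 3.46e-05).

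The question the series asks is what the loss of Nogo-A changes. For these genes no difference between KO and WT was called at either stage, by edgeR or by DESeq2. At P25 the background was 7 of 15109 genes called, or 0.0463%, with 0.0199% higher and 0.0265% lower in KO. At E14 it was 3 genes, or 0.0199%, all lower in KO. At an unadjusted p under 0.05 there was 1 member at P25 and 3 at E14, where all genes gave 282, or 1.87%, at P25 and 735, or 4.86%, at E14. The log2 fold changes of the members, KO over WT, ran from -0.34 to 0.33 at P25 and from -0.51 to 0.55 at E14. The 95% interval lay within a 2-fold difference either way for 34 of 35 members at P25 and for 32 of 35 at E14, and differences smaller than that may have gone undetected. No companion gene of the 6 lists was called between the genotypes either.

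At P25 the 4 KO libraries of no member lay all on 1 side of the 4 WT libraries, where 2.05% of all genes had KO all higher and 1.28% KO all lower. Manf had the lowest unadjusted p, with 39.1, 44.5, 43.3 and 39.9 CPM in KO and 50.1, 56.4, 42.9 and 56.9 CPM in WT, so that WT replicate 3 fell among the KO libraries. Its log2 fold change was -0.31 (SE 0.145, unadjusted p = 0.0468, adjusted p = 1 in edgeR's test). Asns came next, with 185, 198, 265 and 208 CPM in KO and 291, 246, 256 and 267 CPM in WT, where KO replicate 3 lay within the WT range (log2 fold change -0.31, SE 0.175, unadjusted p = 0.0933, adjusted p = 1 in edgeR's test). The values leaned one way: 28 of 35 members were below 0, with a median of -0.14, where 46.4% of all genes were above 0 and the median was -0.02. That lean was known before these members were listed, so it is no separate support. It shrank to 24 of 35 members and a median of -0.07 without P25 WT replicate 4, and the value of Hspb1 itself was -0.07 in place of -0.33. In that library Hspb1 had 264 CPM, Hspb8 510 CPM and Hspa5 202 CPM, the highest of the 16 libraries for Hspb1 and Hspb8.

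The immediate early genes also differed between the P25 libraries. They summed to 1504, 1658, 1673 and 319 CPM in the KO libraries and to 479, 324, 408 and 348 CPM in the WT libraries. KO replicates 1 to 3 lay above all WT libraries and KO replicate 4 just below them, and all 15 genes had positive log2 fold changes, of which 13 had an unadjusted p under 0.05 and 2 were called. In the same KO libraries Hspa1a plus Hspa1b had 11.6, 11.3, 9.86 and 10.1 CPM, against 11.4, 10.7, 13.2 and 12.6 CPM in WT, and the log2 fold change was -0.16 (SE 0.181, adjusted p = 1). Hsp90aa1, with 385, 401, 256 and 519 CPM in KO against 308, 296, 317 and 393 CPM in WT, had 0.25 (SE 0.396, adjusted p = 1). The part of the activation genes in any member's value was not tested. Marker sums of sensory neurons, Schwann cells and satellite glia overlapped between P25 KO and WT. Markers of endothelium (7 of 7, median log2 fold change 0.42), erythroid cells (8 of 8, 0.42) and central nervous system glia (7 of 7, 0.62) all had positive values at P25 with overlapping sums and no call. Of the 8 surface epithelium markers 5 were tested at P25, 2 with positive and 3 with negative values, and 1 was called lower in KO. The lowest log2 fold change was -6.07 and the median -0.16. The 8 summed to 4.57 to 6.31 CPM in P25 KO and 5.85 to 7.61 CPM in P25 WT.

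At E14 the only member with all KO libraries on 1 side was Xbp1, at 87.5, 83.9, 84.7 and 93.8 CPM in KO against 130, 142, 108 and 96.9 CPM in WT, where 1.11% of all genes had KO all lower and 0.523% KO all higher. Its log2 fold change was -0.44 (SE 0.148, unadjusted p = 0.00726, adjusted p = 0.942 in edgeR's test) and -0.35 without E14 WT replicate 2 (adjusted p = 0.652). The other members under an unadjusted p of 0.05 were Hspb1, with 6.0, 4.67, 4.95 and 4.10 CPM in KO against 4.26, 3.17, 3.58 and 2.37 CPM in WT, and Hspe1, whose values are given above, and in both the groups overlapped. Of the 35 members, 19 were above 0 and 16 below, with a median of 0.03 beside -0.04 over all genes, of which 43.3% were above 0. Without E14 WT replicate 2, 24 members were above 0 and 11 below, with a median of 0.06. The E14 WT mean of many members was pulled by replicate 2: for Hsp90b1 the log2 fold change was 0.45 with it and 0.13 without it, and for Canx 0.44 with it and 0.17 without it. For Dnajc3 it was -0.34 with it and -0.63 without it (adjusted p = 0.583). Marker lists also differed at E14: the 8 surface epithelium markers summed to 6.07 to 11.7 CPM in KO against 22.1 to 32.1 CPM in WT, with 1 gene called lower. Only 5 of those 8 passed the filter on low counts, 3 with positive and 2 with negative values. Their median log2 fold change was 0.32 and the lowest was -2.40, so the lower sum was not shared by most of them. Of the 8 macrophage markers 7 had negative values (median log2 fold change -0.60), with summed levels of 43.1 to 63.3 CPM in KO against 54.9 to 99.4 CPM in WT and no call. The part of these cells in the members' values was not tested.

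**Figure D5:**
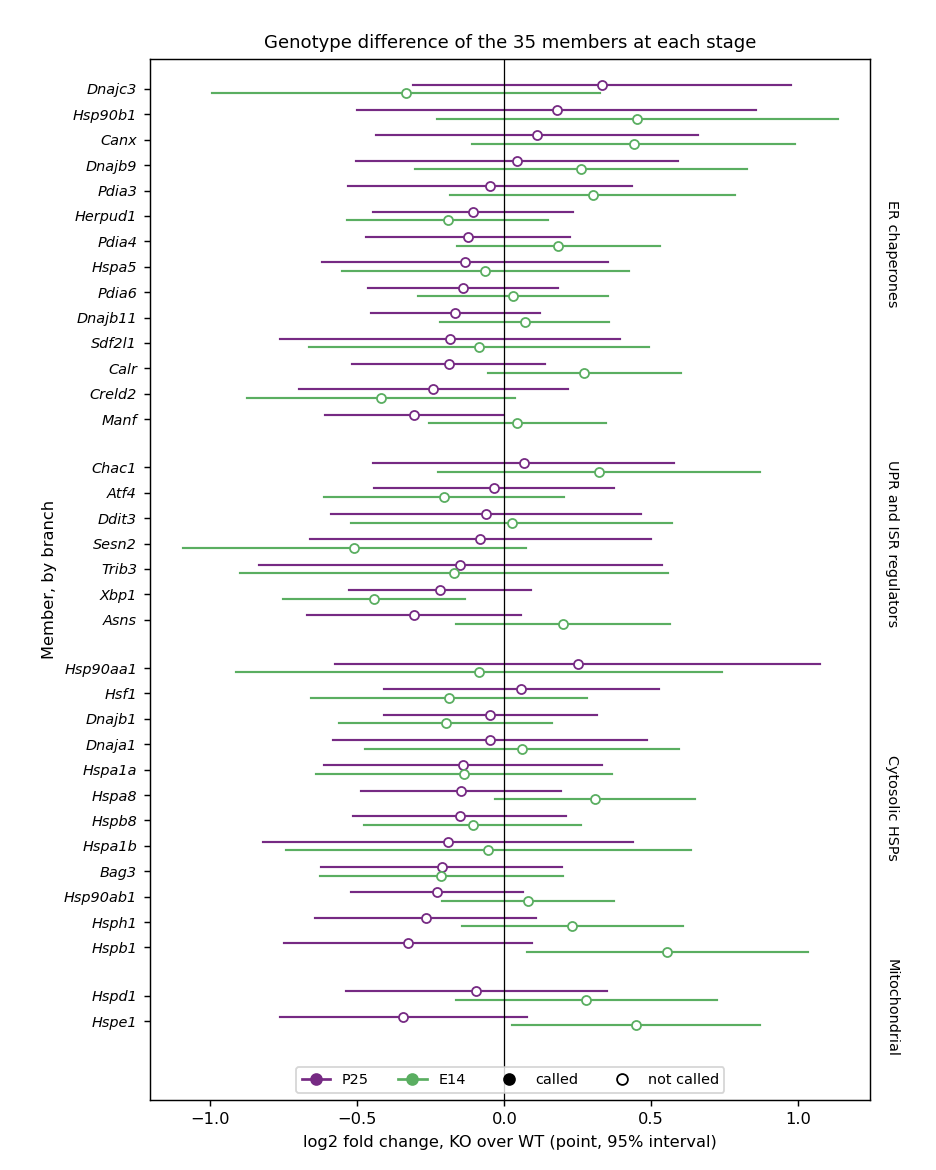
Genotype difference of each member as log2 fold change, KO over WT (x axis), by branch (y axis, members in rows), at P25 (purple) and E14 (green), with 95% intervals; no point is filled because none was called. Most P25 points lie left of 0, 28 of 35, and the E14 points lie on both sides, 19 above 0 and 16 below.

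Whether the stage difference itself differed between the genotypes was tested as an interaction, KO minus WT, and no member was called, where the background was 0% of all genes by edgeR. At an unadjusted p under 0.05 there were 2 members and 647 of all genes, or 4.28%. Hspb1 had the lowest p, with a stage log2 fold change of 4.84 in KO and 5.72 in WT, a difference of -0.88 (SE 0.305, unadjusted p = 0.00902, adjusted p = 0.993 in edgeR's test). Without P25 WT replicate 4 the difference was -0.62. Hspe1 followed, with -0.62 in KO and 0.17 in WT, a difference of -0.79 (SE 0.285, unadjusted p = 0.0117, adjusted p = 0.993 in edgeR's test).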

How the data were processed

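Ganglia were extracted with TRIzol and made into stranded mRNA libraries, per the labels. The authors deposited estimated counts for each gene, in whole numbers and unscaled. Among the tools named in the submitters' processing notes are kallisto 0.46, fastp 0.20.0 and DESeq2 1.32.0, and the build GRCm39, without role or order; annotation and strand setting: not given in the sources used here. A model shares reads between similar transcripts in such values, which touches near-identical copies. Of 25719 identifiers, 25614 had a symbol. Lengths and GC content are from GENCODE M21 on GRCm38, another build. Groups and replicate numbers came from the sample titles.

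One model for the 16 libraries was fitted with edgeR 4.0.16 under R 4.3.3, after TMM scaling and filterByExpr on the 4 groups, and a quasi-likelihood F test was adjusted by Benjamini-Hochberg over 15109 genes. Each adjusted p comes from it. SE is the size of the log2 fold change over the root of F, and 95% intervals use the t distribution of that test. These p-values reflect how single ganglia vary. The steps were tested on simulated data. Alternatives left out each library, blocked on replicate number, used DESeq2 1.42.0, RLE factors or plain totals, dropped or tightened the low-count filter, kept only the compared groups, summed same-numbered ganglia or the Hspa1 pair, or offset GC content and length.

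The members and lists were chosen with earlier results of these data known. Given library by library were, per branch, up to 4 members called in both genotypes with the largest stage difference in each genotype, and per genotype comparison the members whose groups did not overlap, or the 2 of lowest p; Hspa5 was added with its values known. Companion genes named are up to 2 called each way in WT at a mean of at least 10 CPM. Their values are for WT only, with E14 WT replicate 2 included. Figures were drawn with matplotlib 3.10.9.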

Additional observations from a re-analysis of the deposited data

Results flagged for a closer look

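In 6 of the 140 sets of 4 libraries (35 members in 4 groups), the highest or lowest library was set apart by a gap of more than 0.829 of the range. About 1 set in 20 passes that limit when nothing sets a library apart, or about 7 of 140. Hspb1 had 264 CPM in P25 WT replicate 4 against 139 to 156 CPM in the other 3, the library with the second strongest trend on GC content and length. Hsf1 had 34.0 CPM in P25 WT replicate 2 against 46.9 to 47.5 CPM, and Hspa1a had 5.10 CPM in the same library against 7.05 to 7.42 CPM. Hspa1a also had 6.46 CPM in P25 KO replicate 2 against 5.95 to 6.02 CPM, a gap of little size. In E14 KO replicate 1, Manf had 94.8 CPM against 80.8 to 81.3 CPM and Trib3 had 2.65 CPM against 1.22 to 1.26 CPM.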

How the results depend on the processing

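The counts of members called kept their size within 1.5 times under the 26 alternatives, 16 of which leave out 1 library, with the exceptions given here. Members called lower at P25 in KO numbered 8, 5 with no low-count filter, and 5 to 9 when 1 library was left out, with 5 without P25 KO replicate 2 and without P25 KO replicate 4. Leaving out 1 library gave 11 to 13 members higher in KO, 11 to 13 higher in WT and 5 lower in WT. GC and length offsets gave 13 higher and 9 lower in KO and 16 higher and 6 lower in WT, and DESeq2 gave 11 and 8 in KO and 14 and 5 in WT. Of the 36 calls of a member between stages, 31 were made under every setting, and 5 were lost under at least 1: Hsp90aa1 in WT, and Creld2, Dnajb11, Xbp1 and Hspe1 in KO. Of the 34 member values not called, 11 were called under at least 1 setting. These were Hsp90b1, Trib3, Hspa8 and Hsph1 in KO, and Hsp90b1, Trib3, Asns, Calr, Canx, Atf4 and Dnaja1 in WT. With plain totals Calr and Atf4 were called in WT (adjusted p = 0.0295 and 0.0425). With GC and length offsets Canx, Atf4 and Dnaja1 were called in WT (adjusted p = 0.000531, 0.00599 and 0.0297). No called value changed sign, and no genotype or interaction call of a member appeared under any setting. The cause of these shifts was not tested.

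With the replicate number as a block the counts were 11 higher and 8 lower in KO, 12 higher and 5 lower in WT, and 0 for the genotype and interaction tests, as without it. The numbers do not pair the samples: deviations of same-numbered libraries correlated at -0.252 to 0.197 between the WT stages, -0.06 to 0.137 between the KO stages, -0.157 to 0.135 between genotypes at P25 and -0.356 to 0.0213 at E14, and 3 of 16 libraries correlated best with their own number.

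Depth limits the lowest members most, since Trib3 and Hspa1b had as few as 16 counts in a library.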
